A study of Mus musculus with 18 samples.

Results

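The transcripts of 10 circadian clock genes (Bmal1, Clock, Per1, Per2, Per3, Ciart, Nr1d1, Nfil3, Dbp and Tef) were followed in mouse liver RNA-seq, as the rows whose gene symbol equals one of these names in 2 deposited tables of normalized counts. All 10 were present in both tables, of 33235 genes in each. Livers came from wild-type mice on 1 of 2 diets that the labels name HFHC and CDAHFD, after an antisense oligonucleotide against Mdm2 (GalNAc-Mdm2ASO, here Mdm2 ASO) or a control one (GalNAc-conASO, here control ASO). The oligonucleotides carry GalNAc, a sugar that hepatocytes take up through the asialoglycoprotein receptor, and Mdm2 encodes the ubiquitin ligase that restrains p53. Mdm2 ASO livers on CDAHFD numbered 5 (replicates 6 to 10) and those with control ASO 5 (replicates 1 to 5). Mdm2 ASO livers on HFHC numbered 4 and those with control ASO 4 (replicates 1, 2, 4 and 5), but the Mdm2 ASO columns 6 and 7 held identical values in all 33235 genes, so they counted as 1 library, written 6-7, beside replicates 9 and 10. The labels used here give no age, sex, feeding state or time of day for the livers, so an effect of the oligonucleotide and a difference in the hour of collection between groups cannot be told apart.

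The mammalian clock is a transcriptional loop that turns once a day in nearly every cell. BMAL1 and CLOCK bind E-boxes and drive the genes of their own repressors, the PER and CRY proteins and CIART, and those of NR1D1 (REV-ERBα), DBP and TEF. NR1D1 represses Bmal1 through ROR elements, and NFIL3 opposes DBP, TEF and HLF at D-boxes. In mouse liver Bmal1 transcript is high when Dbp transcript is low and the reverse.

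On CDAHFD most clock genes moved, in opposite arms. Ciart, Per3, Dbp, Tef and Per2 rose and Bmal1 and Clock fell in Mdm2 ASO livers, while Per1, Nr1d1 and Nfil3 did not pass the test. Of all genes tested on that diet, 13.0% passed. On HFHC Ciart rose and Nr1d1 fell and the other 8 did not pass. Of all genes tested there 30.6% passed, so 2 of 10 is not above the share, and the Ciart call held in 6 of 16 alternative settings. The Mdm2 ASO libraries on HFHC differed from each other: 9 and 10 stood away from the controls in most clock genes, whereas 6-7 did so in few. By a test of the difference between diets, the Mdm2 ASO effects on Dbp and Tef were higher on CDAHFD than on HFHC. Of all genes tested for this difference 23.5% passed, so 2 of 10 is not above the share here either. The Dbp call was lost on leaving out any of 5 libraries in turn. The Tef call was lost on leaving out any of 10 in turn.

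The promoters of clock genes carry the elements through which the loop acts. For each of the 5 genes with a match to a motif named below, a window that holds it is shown. Of the 10 genes, 9 had an entry in the RefSeq promoter table (all but Per2), with 14 windows of 300 bases on GRCm38.p6, each running from 250 bases before to 50 after a transcription start. Each window was searched on both strands for the E-box CACGTG, the D-box TTATGNAA, the cAMP response element TGACGTCA and the ROR element. Of 32851 windows of all genes, 7.15% held the E-box, 3.38% the D-box, 1.79% the cAMP response element and 0.384% the ROR element. Sequences run 5′ to 3′ on the strand of the gene, with the matched motifs in capitals.

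Ciart chr3:95882179-95882478, minus strand, E-boxes in capitals: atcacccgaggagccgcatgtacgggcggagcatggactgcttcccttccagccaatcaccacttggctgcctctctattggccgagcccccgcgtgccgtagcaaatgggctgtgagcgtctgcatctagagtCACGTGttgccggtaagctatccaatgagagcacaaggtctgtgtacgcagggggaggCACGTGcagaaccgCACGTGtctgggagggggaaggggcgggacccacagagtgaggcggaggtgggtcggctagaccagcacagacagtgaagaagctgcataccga

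Per3 chr4:151044616-151044915, minus strand, D-boxes in capitals: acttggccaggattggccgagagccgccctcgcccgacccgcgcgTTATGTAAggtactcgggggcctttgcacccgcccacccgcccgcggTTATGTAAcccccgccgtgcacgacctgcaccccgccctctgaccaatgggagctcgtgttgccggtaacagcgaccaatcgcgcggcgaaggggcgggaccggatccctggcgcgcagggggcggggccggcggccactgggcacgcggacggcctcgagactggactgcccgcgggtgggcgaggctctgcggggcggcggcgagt

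Per1 chr11:69098699-69098998, plus strand, an E-box and then a D-box in capitals: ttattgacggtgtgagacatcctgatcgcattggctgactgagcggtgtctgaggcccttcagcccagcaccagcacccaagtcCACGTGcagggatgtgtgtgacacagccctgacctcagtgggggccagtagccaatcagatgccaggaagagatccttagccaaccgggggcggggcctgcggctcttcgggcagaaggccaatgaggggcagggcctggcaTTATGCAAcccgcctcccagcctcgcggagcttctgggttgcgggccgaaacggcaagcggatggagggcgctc

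Tef chr15:81802423-81802722, plus strand, E-box in capitals: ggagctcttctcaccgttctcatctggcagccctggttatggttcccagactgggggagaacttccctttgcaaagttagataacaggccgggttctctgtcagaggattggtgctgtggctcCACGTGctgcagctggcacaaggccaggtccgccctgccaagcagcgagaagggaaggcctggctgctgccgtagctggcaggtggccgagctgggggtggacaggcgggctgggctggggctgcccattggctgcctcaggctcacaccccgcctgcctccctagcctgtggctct

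Bmal1 (Arntl in RefSeq) chr7:113207261-113207560, plus strand, ROR element in capitals: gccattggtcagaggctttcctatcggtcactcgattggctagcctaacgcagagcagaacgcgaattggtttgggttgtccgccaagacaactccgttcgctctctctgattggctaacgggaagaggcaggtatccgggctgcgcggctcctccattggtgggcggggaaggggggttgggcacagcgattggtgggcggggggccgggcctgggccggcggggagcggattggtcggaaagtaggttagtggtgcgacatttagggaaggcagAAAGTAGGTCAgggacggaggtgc

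The Ciart window held 3 E-boxes, whose first bases lie at positions -116, -58 and -44 from the start, and 0.0883% of all windows (29) held 3 or more. The Per3 window held 2 copies of TTATGTAA, at -205 and -158, and 0.161% of all windows (53) held 2 or more D-boxes. Per1 combined an E-box at -166 with a D-box at -24, and 0.140% of all windows (46) held both. These cut-offs equal what the Ciart, Per3 and Per1 windows held, so the shares describe those windows and are no test. Tef had 1 E-box in each of its 2 windows, at -127 and at -138. The Bmal1 match lay after the start, at bases 27 to 37. In the windows of Dbp, Nr1d1, Nfil3 and Clock none of the 4 motifs was found, which says only that these letters are not in those windows. These matches are letters in a sequence and not measured binding.

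Values below are normalized counts as deposited, and levels are compared between libraries of 1 table, never between genes or tables. A log2 change is the Mdm2 ASO mean minus the control ASO mean of log2(value + 0.5), and a fold is that change off the log scale. It is given with its standard error (SE) and a p from limma-trend, adjusted by Benjamini-Hochberg over all genes tested in that diet. A gene is said to have risen or fallen where this p was under 0.05. Reads recovered from the tables numbered 22376178 to 31453055 per library on CDAHFD and 17770748 to 18798144 on HFHC. In whole liver RNA, fewer cells of a type and less RNA per cell cannot be told apart.

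**Figure D1:**
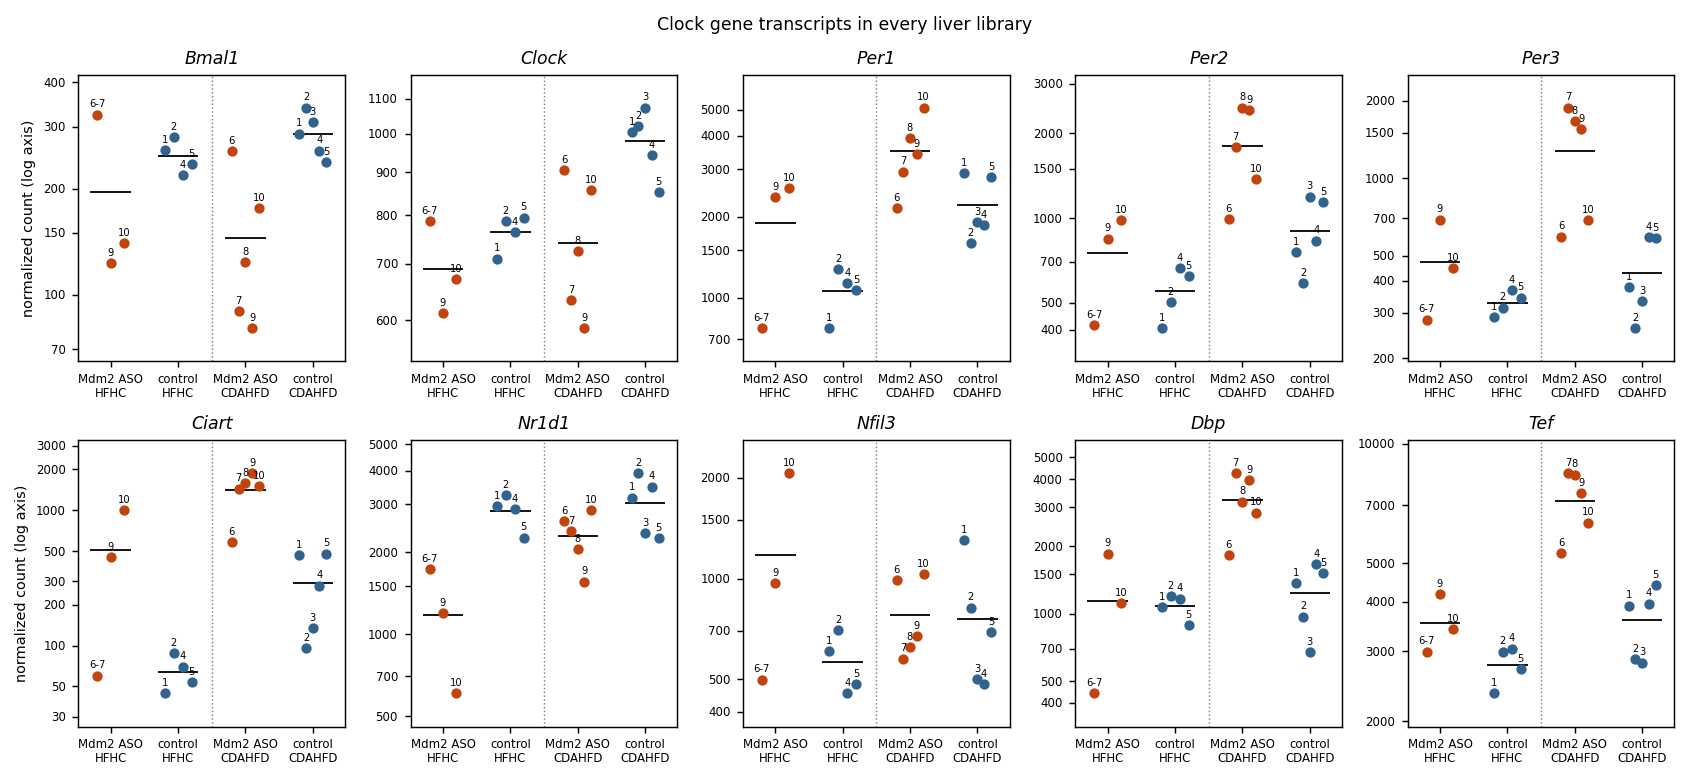
Normalized counts (log axis) of the 10 clock genes in every liver library, numbered by replicate, with Mdm2 ASO in orange and control ASO in blue for HFHC (left) and CDAHFD (right) and a line at each group's mean. On HFHC the Mdm2 ASO library 6-7 lies among or near the controls for most genes and has the lowest Dbp of that diet, at 441, and on CDAHFD Mdm2 ASO replicate 6 is the Mdm2 ASO library nearest the controls for Ciart, at 579.

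On CDAHFD, 7 of the 10 clock genes passed the test, 5 of them higher and 2 lower, where 13.0% of the 16803 genes tested passed (6.12% higher and 6.86% lower). Their median log2 change was 0.81, against -0.0021 over all genes.

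The positive arm fell. Bmal1, whose protein pairs with CLOCK, had 256, 90.0, 124, 80.4 and 176 normalized counts in Mdm2 ASO replicates 6 to 10, against 286, 339, 308, 256 and 237 in control ASO replicates 1 to 5. Mdm2 ASO replicates 7 to 10 lay below every control, and replicate 6 lay inside the control range. Bmal1 fell to 46.8% of the control level (log2 change -1.10, SE 0.26, adjusted p = 0.0148). Clock had 906, 634, 724, 587 and 856 in Mdm2 ASO livers, against 1005, 1022, 1074, 943 and 852 in control livers. The 3 libraries lowest in Bmal1 were also the 3 lowest in Clock, and the others overlapped the control range. Clock fell by a smaller amount (log2 change -0.42, SE 0.12, adjusted p = 0.0349), and this call was lost without any 1 of control ASO replicates 1, 2, 3 and 4 or Mdm2 ASO replicates 7, 8 and 9, with adjusted p at most 0.0848.

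Among the repressors, Ciart moved furthest. Ciart, which encodes a small protein that binds BMAL1 and dampens its activity, had 579, 1447, 1595, 1886 and 1509 in Mdm2 ASO livers, against 463, 96.2, 135, 277 and 478 in control livers. The groups did not overlap, and replicate 6 alone stood close to the highest controls. Ciart rose 5.43-fold (log2 change 2.44, SE 0.42, adjusted p = 0.00250). Per3 had 594, 1882, 1670.0, 1553 and 689.9 in Mdm2 ASO livers, against 379, 262, 333, 589 and 584 in control livers. Replicates 7, 8 and 9 stood well apart, whereas replicate 6 exceeded the highest control by a few counts. Per3 rose 2.81-fold (log2 change 1.49, SE 0.32, adjusted p = 0.00878).

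Per2, which encodes a core repressor that enters the nucleus with the CRY proteins, had 994, 1793, 2472, 2414 and 1372 in Mdm2 ASO livers, against 755, 586, 1193, 831 and 1141 in control livers. Only replicate 6 fell inside the control range. Per2 rose 1.96-fold (log2 change 0.97, SE 0.24, adjusted p = 0.0187), and its adjusted p became 0.0543 without control ASO replicate 2 and 0.0525 without Mdm2 ASO replicate 8. Per1, a PER gene that also responds acutely to cAMP and glucocorticoids, had 2155, 2944, 3922, 3413 and 5088 in Mdm2 ASO livers, against 2912, 1601, 1915, 1861 and 2805 in control livers. The ranges overlapped through replicate 6, and the log2 change of 0.64 (SE 0.21) did not pass (adjusted p = 0.0593). Without control ASO replicate 1 or 5 or Mdm2 ASO replicate 6 Per1 did pass, with adjusted p of 0.0393, 0.0405 and 0.0177.

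Dbp and Tef, output factors of the PAR-bZIP family, rose, with every Mdm2 ASO library above every control. Hlf, the family's other member and not among the 10 clock genes, did not pass (log2 change -0.06, adjusted p = 0.787). Dbp, whose transcript has one of the deepest daily rhythms of mouse liver, had 1836, 4263, 3169.9, 3968 and 2835 in Mdm2 ASO livers, against 1373, 971, 673, 1673 and 1517 in control livers. No Mdm2 ASO library reached down to a control, and replicate 6 was again the nearest. Dbp rose 2.62-fold (log2 change 1.39, SE 0.25, adjusted p = 0.00326). Tef, a close relative that binds the same D-boxes, had 5317, 8448, 8369, 7524 and 6331 in Mdm2 ASO livers, against 3914, 2874, 2812, 3959.6 and 4406 in control livers. The groups did not overlap, and the order of the Mdm2 ASO libraries was close to that in Dbp. Tef rose 2.01-fold (log2 change 1.00, SE 0.15, adjusted p = 0.00126).

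The remaining repressors did not pass on CDAHFD. Nr1d1, the nuclear receptor that represses Bmal1, had 2599, 2395, 2055, 1561 and 2856 in Mdm2 ASO livers, against 3179, 3919, 2357, 3493 and 2252 in control livers, with a log2 change of -0.40 (SE 0.18, adjusted p = 0.146). Nfil3, the repressor at D-boxes, had 989.7, 577, 624, 673 and 1035 in Mdm2 ASO livers, against 1301, 820.3, 501, 485 and 691 in control livers, with a log2 change of 0.09 (SE 0.25, adjusted p = 0.841). Both genes overlapped widely between the groups. The 95% interval of the Nfil3 change ran from -0.43 to 0.62, so a change of either sign within it is not excluded by these libraries.

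Without replicate 6, which was the Mdm2 ASO library nearest the controls in most clock genes, 6 of the 10 rose and 2 fell, where 1823 of the 17035 genes tested passed (10.7%). Replicate 6 was singled out by these same clock gene values, so the larger count without that library is no test. That library also had the highest Mdm2 count of its group, at 861, beside 564 to 646 in replicates 7 to 10, against 1443 to 1649.9 in control livers, and the highest Cdkn1a count, at 6658, beside 3053 to 5177 in the others, against 2232 to 2983 in control livers. The part of its Mdm2 level in these results was not tested.

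**Figure D2:**
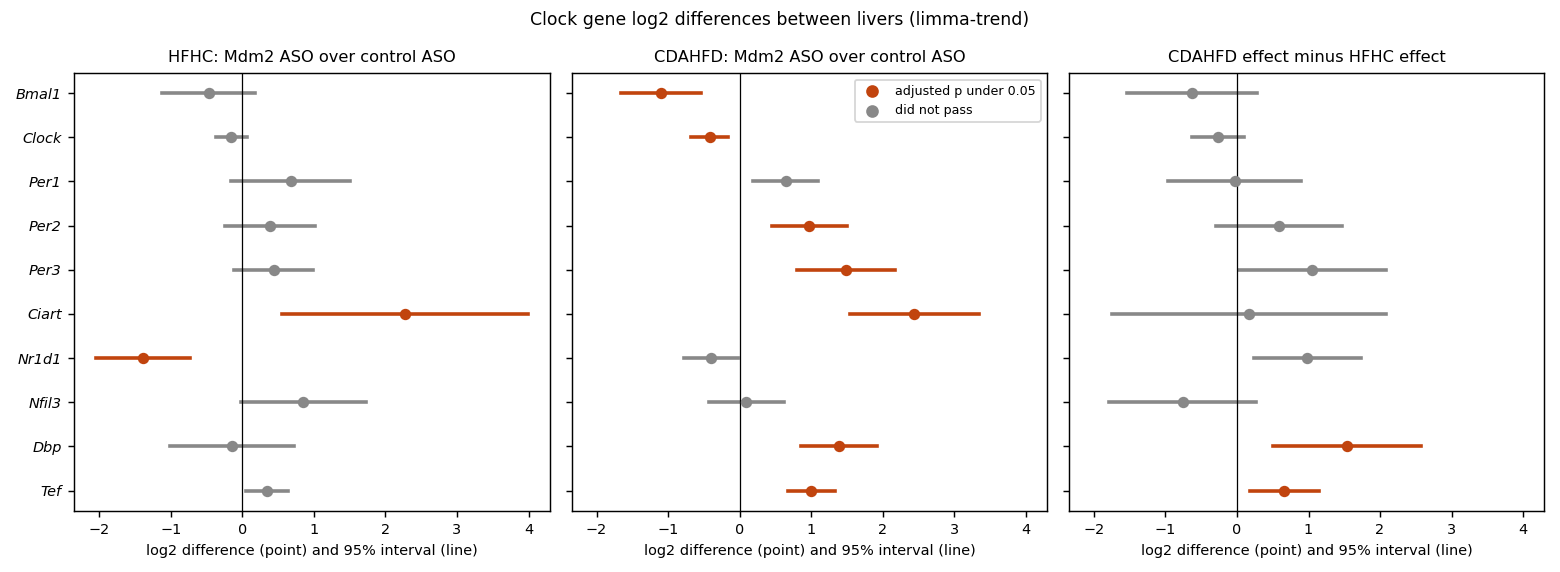
Log2 differences of the 10 clock genes with 95% intervals from limma-trend, for Mdm2 ASO over control ASO on HFHC (left) and CDAHFD (middle) and for the CDAHFD effect minus the HFHC effect (right), in orange where the adjusted p was under 0.05. On CDAHFD 5 genes lie right of 0 and 2 left of it past the test; on HFHC Ciart and Nr1d1 do, with a Ciart interval from 0.55 to 3.99.

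On HFHC, 2 of the 10 clock genes passed, 1 higher and 1 lower, where 30.6% of the 17441 genes tested passed (16.8% higher and 13.8% lower). Their median log2 change was 0.36, against -0.0061 over all genes. A count of 2 of 10 is not above the share among all genes. Of all calls on HFHC 55.0% were higher as deposited, 40.0% after quantile normalization and 69.8% after scaling to the library total, with median log2 changes of -0.11 and 0.10 over all genes under these other scalings.

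Nr1d1 was the member with the clearest separation on HFHC. It had 1733, 1192 and 605 normalized counts in Mdm2 ASO libraries 6-7, 9 and 10, against 2949, 3252, 2893 and 2266 in control ASO replicates 1, 2, 4 and 5. All 3 Mdm2 ASO libraries lay below all 4 controls. Nr1d1 fell to 38.3% of the control level (log2 change -1.39, SE 0.29, adjusted p = 0.00639), a call that held in all 16 alternative settings. Thra, which overlaps the end of Nr1d1 on the opposite strand, had a log2 change of -0.25 (adjusted p = 0.118). Whether reads were counted by strand is not given in the sources used here, so reads of the overlap cannot be assigned.

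Ciart had 60.2, 450.2 and 1007 in Mdm2 ASO libraries 6-7, 9 and 10 on HFHC, against 44.4, 87.6, 70.1 and 54.0 in control libraries. Library 6-7 lay inside the control range while 9 and 10 lay several-fold above it. The mean change was 2.27 on the log2 scale (4.84-fold, SE 0.77, adjusted p = 0.0491), just past the threshold. The call was lost without any 1 of the control libraries (adjusted p = 0.102, 0.0661, 0.0900 and 0.104 without replicates 1, 2, 4 and 5), without Mdm2 ASO replicate 9 (log2 change 1.99, adjusted p = 0.165) and without replicate 10 (1.41, adjusted p = 0.162). Without library 6-7 the change was 3.43.

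Bmal1 had 324, 123 and 140.4 in Mdm2 ASO libraries 6-7, 9 and 10, against 257, 279.5, 218 and 235 in control libraries. Library 6-7 was the highest of the 7 and the other 2 were the lowest. The log2 change of -0.47 (SE 0.29) did not pass (adjusted p = 0.251). Clock kept this order among the Mdm2 ASO libraries on a smaller scale, with 9 and 10 the lowest of the 7 and 6-7 inside the control range, at 786, 611 and 672 in Mdm2 ASO libraries, against 710.2, 787, 764 and 794 in control libraries (log2 change -0.15, SE 0.10, adjusted p = 0.258).

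Dbp split the same libraries the other way. It had 441, 1860.4 and 1119 in Mdm2 ASO libraries 6-7, 9 and 10, against 1072, 1205, 1170.3 and 891 in control libraries. Library 6-7 was the lowest of the 7, library 9 the highest, and library 10 was level with the controls. The log2 change was -0.15 (SE 0.39, adjusted p = 0.806), and its 95% interval ran from -1.01 to 0.72. Sphk2, which overlaps Dbp on the opposite strand and was singled out after its values were seen, fell on HFHC (-0.52, adjusted p = 0.00152) and did not pass on CDAHFD (-0.14, adjusted p = 0.531), so reads shared by the 2 genes cannot be assigned either. Tef had 2997, 4188 and 3409 in Mdm2 ASO libraries, against 2350.3, 2997, 3050.4 and 2702 in control libraries, with 9 and 10 above all controls and 6-7 among them (log2 change 0.34, SE 0.13, adjusted p = 0.0749).

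The PER genes repeated this division. Per1 had 771, 2364 and 2557 in Mdm2 ASO libraries, against 771, 1279, 1133 and 1070.3 in control libraries (log2 change 0.68, SE 0.37, adjusted p = 0.202). Per2 had 415, 845 and 985 in Mdm2 ASO libraries, against 406, 501, 664 and 623 in control libraries (0.38, SE 0.28, adjusted p = 0.340). Per3 had 282, 690.4 and 448 in Mdm2 ASO libraries, against 289, 314, 369 and 344 in control libraries (0.44, SE 0.25, adjusted p = 0.215). In each of the 3 genes libraries 9 and 10 exceeded every control and 6-7 was at or near the lowest control. Nfil3 had 499, 971 and 2071 in Mdm2 ASO libraries, against 609, 703, 454 and 485 in control libraries, with 6-7 inside the control range and 10 furthest above it (log2 change 0.85, SE 0.39, adjusted p = 0.129).

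Leaving out library 6-7 raised the number of clock genes called on HFHC to 8, with 6 higher and 2 lower, where 4857 of the 18088 genes tested passed (26.9%). Bmal1 then fell (log2 change -0.90, adjusted p = 0.00134), and Per1 (1.23, adjusted p = 0.000851), Per2 (0.76, adjusted p = 0.0150), Per3 (0.76, adjusted p = 0.0104), Tef (0.45, adjusted p = 0.0275) and Nfil3 (1.36, adjusted p = 0.00667) rose. Dbp still did not pass, at 0.42. That fit rests on 2 Mdm2 ASO libraries. Library 6-7 was singled out by its values in these same clock genes, so the p-values without it are no independent evidence of a change. The target of the oligonucleotide was low in library 6-7 too. Its Mdm2 count was 420.4, beside 362 and 304 in libraries 9 and 10, against 907 to 963 in the controls. Its Cdkn1a count, for the cell cycle inhibitor that p53 induces, was 4112, beside 2225 and 3527, against 1551 to 1686 in the controls.

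**Figure D3:**
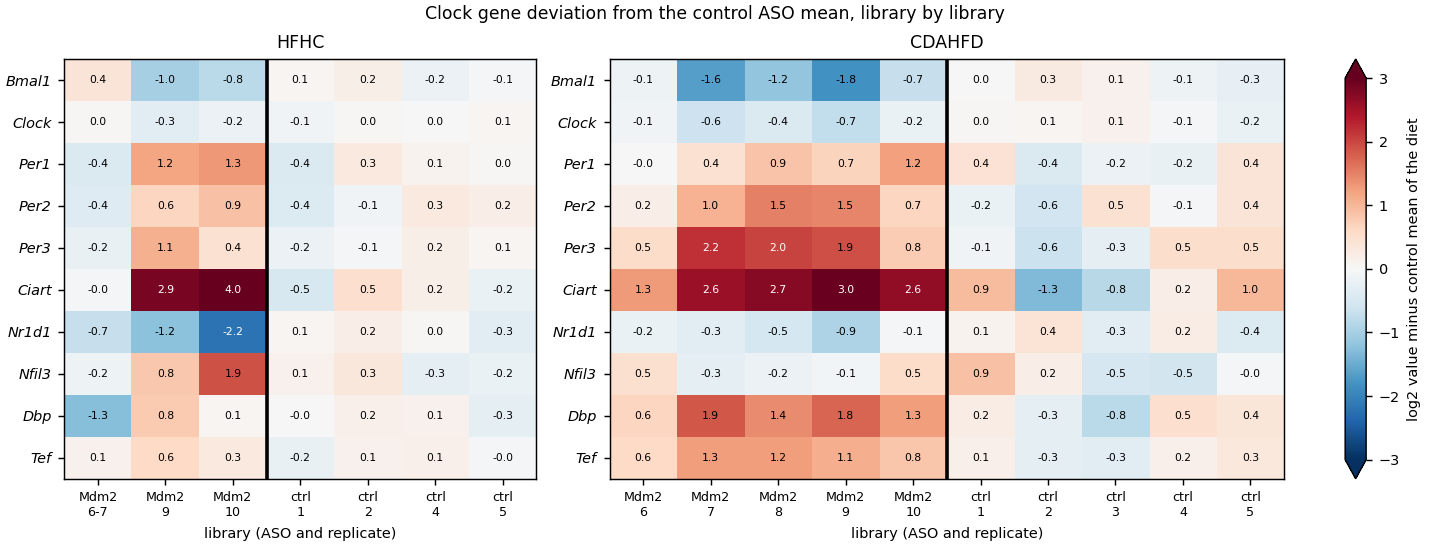
Log2 value of each clock gene in each library minus the mean of the control ASO libraries on the same diet, with red for higher and blue for lower and a heavy line between Mdm2 ASO libraries (left) and control ASO libraries (right). On HFHC the column of library 6-7 differs from those of 9 and 10, with Dbp 1.3 below the control mean, and on CDAHFD replicate 6 is the palest Mdm2 ASO column.

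The Mdm2 ASO effect was compared between diets by subtracting the HFHC effect from that on CDAHFD for 16333 genes, of which 23.5% passed (9.83% higher and 13.6% lower). Dbp (difference 1.54 on the log2 scale, SE 0.49, adjusted p = 0.0300) and Tef (0.66, SE 0.23, adjusted p = 0.0440) passed, both higher on CDAHFD. These 2 of 10 clock genes are not above the share among all genes. Library 6-7 decided part of the Dbp result, since without it the difference was 0.97 (adjusted p = 0.109). The Dbp call was also lost without HFHC control ASO replicate 2 or 4, CDAHFD control ASO replicate 2 or CDAHFD Mdm2 ASO replicate 7, and the Tef call was lost without any 1 of 10 libraries, namely HFHC control ASO 2, 4 and 5, HFHC Mdm2 ASO 6-7 and 10, CDAHFD control ASO 2 and 3 and CDAHFD Mdm2 ASO 7, 8 and 9. For Nr1d1 the difference of 0.98 (SE 0.36) did not pass (adjusted p = 0.0539), but it did without library 6-7 (1.33, adjusted p = 0.00847), HFHC control ASO replicate 5, CDAHFD control ASO replicate 2 or CDAHFD Mdm2 ASO replicate 9. For Ciart, called on both diets, the difference was 0.17 with a 95% interval from -1.75 to 2.08 (adjusted p = 0.922). The other 6 did not pass either: Per3 at 1.05, Per2 at 0.59, Per1 at -0.03, Clock at -0.26, Bmal1 at -0.63 and Nfil3 at -0.76 (adjusted p = 0.134 to 0.970), although Per3 passed without CDAHFD Mdm2 ASO replicate 6 (adjusted p = 0.0478). Bmal1, Clock, Per2 and Per3 thus passed on CDAHFD and not on HFHC, but a difference between the diets was not called for any of them.

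Dbp and Bmal1 were also set against each other library by library. The ratio of Dbp to Bmal1 counts, read only between libraries, was 7.18, 47.4, 25.7, 49.3 and 16.1 in Mdm2 ASO replicates 6 to 10 on CDAHFD, against 4.79, 2.86, 2.18, 6.53 and 6.39 in control replicates 1 to 5. On HFHC it was 1.36, 15.1 and 7.97 in Mdm2 ASO libraries 6-7, 9 and 10, against 4.17, 4.31, 5.37 and 3.80 in control libraries. All 5 Mdm2 ASO libraries on CDAHFD exceeded the controls, and on HFHC library 6-7 had the lowest ratio of the 7.

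Covariation was measured over 17 libraries after each group's mean was removed, so that the mean difference between the oligonucleotides does not enter. Differences among the Mdm2 ASO libraries of a group do enter. On HFHC the standard deviation of log2 Dbp was 1.05 in Mdm2 ASO libraries, against 0.20 in control libraries. The test was a two-sided permutation within groups, with adjustment over 9 relations. Dbp ran opposite to Bmal1 (Pearson r = -0.82, permutation p = 0.000500, adjusted 0.00150; Spearman rho = -0.81, p = 0.000720, adjusted 0.00246) and to Clock (r = -0.78, permutation p = 0.000300, adjusted 0.00135; rho = -0.83, p = 0.000330, adjusted 0.00246). It ran with Tef (r = 0.81, permutation p = 0.000280, adjusted 0.00135; rho = 0.84, p = 0.000820, adjusted 0.00246), Per3 (r = 0.79, permutation p = 0.00128, adjusted 0.00288; rho = 0.81, p = 0.00194, adjusted 0.00436) and Ciart (r = 0.79, permutation p = 0.0129, adjusted 0.0231; rho = 0.74, p = 0.0128, adjusted 0.0231). Per1 (r = 0.66, permutation p = 0.0572, adjusted 0.0858; rho = 0.46, p = 0.151, adjusted 0.216), Per2 (r = 0.50, permutation p = 0.120, adjusted 0.154; rho = 0.41, p = 0.168, adjusted 0.216), Nr1d1 (r = -0.28, permutation p = 0.596, adjusted 0.652; rho = -0.25, p = 0.461, adjusted 0.519) and Nfil3 (r = 0.24, permutation p = 0.652, adjusted 0.652; rho = 0.03, p = 0.928, adjusted 0.928) did not pass.

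The 2 libraries farthest from the median Dbp deviation were HFHC Mdm2 ASO 6-7 and CDAHFD control ASO replicate 3. Without them r was -0.83 for Bmal1, -0.77 for Clock, 0.82 for Per3 and 0.81 for Tef, all still past the permutation test, whereas Ciart at 0.64 was not (adjusted permutation p = 0.0743). Within the 10 CDAHFD libraries r was -0.78 for Bmal1, -0.80 for Clock, 0.80 for Per3, 0.90 for Tef and 0.79 for Ciart, and these 5 passed by r (adjusted permutation p = 0.00993 to 0.0314). By rank Ciart did not pass there (rho = 0.52, permutation p = 0.192, adjusted 0.346). Within the 7 HFHC libraries r was -0.91, -0.89, 0.92, 0.77 and 0.79 for the same genes, and 0 of 9 relations passed (adjusted permutation p of 0.284 or more). The signs were the same on both diets for these 5 genes.

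**Figure D4:**
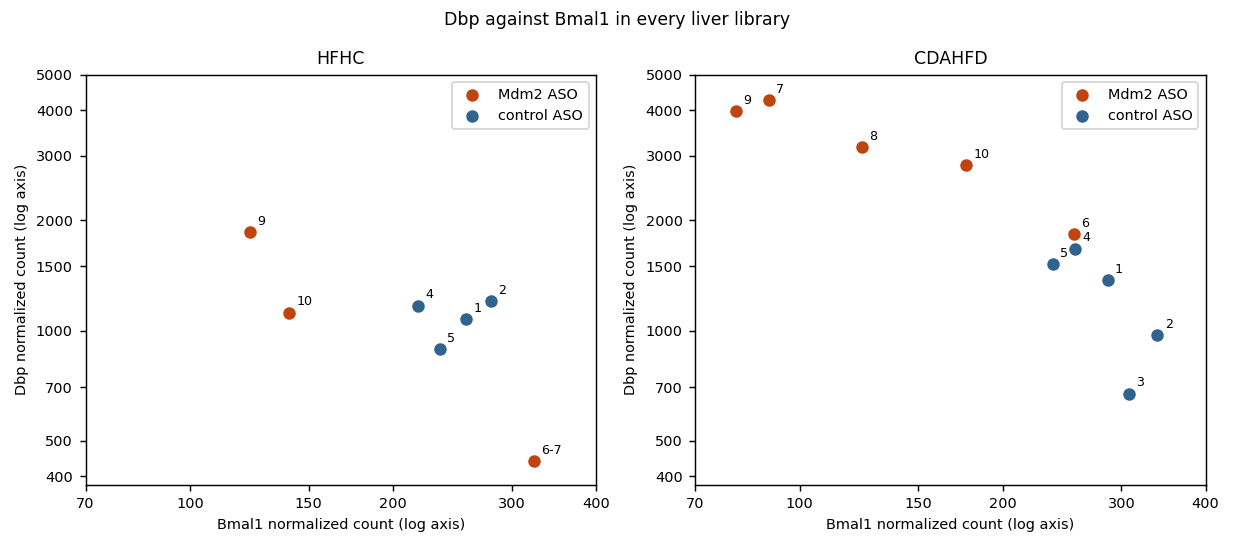
Dbp against Bmal1 normalized counts (both axes log) in every library on HFHC (left) and CDAHFD (right), numbered by replicate, with Mdm2 ASO in orange and control ASO in blue. On CDAHFD the points run from high Bmal1 and low Dbp in control libraries to low Bmal1 and high Dbp in Mdm2 ASO replicates 7 and 9 (90.0 and 80.4 for Bmal1), and on HFHC library 6-7 lies at the opposite end from library 9.

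Except for Clock (standard deviation of log2 values 0.18) and Tef (0.24), the clock genes were among the most variable transcripts within the Mdm2 ASO group on HFHC. This standard deviation was 2.09 for Ciart, larger than for 99.9% of the 12310 genes with a mean log2 value of at least 5. It was 1.05 for Dbp (99.2%), 1.03 for Nfil3 (99.1%), 0.97 for Per1 (99.0%), 0.77 for Nr1d1 (98.1%) and 0.76 for Bmal1 (98.0%). Among control ASO libraries on HFHC the same measure was 0.43 for Ciart (93.6% of 11980 genes), 0.20 for Dbp (72.0%) and 0.16 for Bmal1 (61.5%). On CDAHFD the widest clock genes were Per3 in Mdm2 ASO livers, at 0.78 (98.4%), and Ciart in control livers, at 1.04 (99.6%). The lowest value of any clock gene in any library was 44.4 normalized counts.

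Other clock genes were counted from lists, beside shares of 13.0% of all genes passing on CDAHFD and 30.6% on HFHC. Of 9 further core clock genes on CDAHFD, 4 rose, among them Nr1d2, which encodes REV-ERBβ (log2 change 0.52, SE 0.12, adjusted p = 0.0139), Bhlhe41, which encodes the repressor DEC2 (1.08, SE 0.30, adjusted p = 0.0279), and Cry2 (0.51, SE 0.16, adjusted p = 0.0470). The other 5 did not pass, and the list's median was 0.51. On HFHC 0 of the 9 passed, with 2 at an unadjusted p under 0.05, and the median was -0.06. The effect on Nr1d2 was higher on CDAHFD than on HFHC (difference 0.59, adjusted p = 0.0383). Of 11 modifiers of clock proteins, the kinases, ubiquitin ligase parts and cofactors, 1 fell on CDAHFD (Fbxw11, -0.34, adjusted p = 0.0165) and 2 rose on HFHC (Tipin, 0.84, adjusted p = 0.00252, and Timeless, 0.81, adjusted p = 0.0133). Tipin and Timeless proteins also act together at replication forks. The medians of the modifiers were -0.06 on CDAHFD and 0.06 on HFHC. On neither diet did the count of modifiers that passed exceed the share among all genes.

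Of 16 rhythmic outputs of liver, 5 rose and 2 fell on CDAHFD (median 0.31), where 6.12% of all genes tested rose and 6.86% fell. Por, the electron donor of cytochromes P450 (0.80, adjusted p = 0.00137), Alas1, the first enzyme of heme synthesis (0.98, adjusted p = 0.00181), and Cyp2a5, a cytochrome P450 (1.41, adjusted p = 0.00475), rose. Insig2, which holds SREBP factors in the endoplasmic reticulum, fell (-0.88, adjusted p = 0.00472). On HFHC 2 of the 16 rose and 1 fell (median 0.00), which is not above the shares among all genes, 16.8% higher and 13.8% lower. Noct, a rhythmic phosphatase, was among those that rose (2.07, adjusted p = 0.0126), and Rgs16, a regulator of G protein signalling, fell (-1.27, adjusted p = 0.00833).

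Genes that answer to systemic cues of the clock were counted beside these, again with 13.0% of all genes passing on CDAHFD and 30.6% on HFHC. Of 8 glucocorticoid-induced genes, 1 rose on CDAHFD (Sgk1, 0.44, adjusted p = 0.0303; median 0.31) and 5 rose on HFHC (median 1.04), namely Fkbp5 (1.24, adjusted p = 0.00107), Sgk1 (1.79, adjusted p = 0.00395), Mt2 (0.85, adjusted p = 0.00851), Mt1 (0.81, adjusted p = 0.0123) and Ddit4 (2.86, adjusted p = 0.0148). Ddit4 and Igfbp1 were singled out after their values were seen. On HFHC Ddit4 had 288, 1903 and 4499 normalized counts in Mdm2 ASO libraries 6-7, 9 and 10, against 155 to 214 in the controls, an order shared with Ciart and Nfil3. Fkbp5 did not share it, at 1823, 1039 and 1848 in the Mdm2 ASO libraries, against 558 to 712 in the controls. The part of glucocorticoid-responsive expression in the clock gene differences was not tested. Of 8 temperature-responsive genes, 1 fell on CDAHFD (Rbm3, -0.62, adjusted p = 0.00131; median -0.12), and on HFHC 3 rose and 2 fell (median -0.35), with Cirbp (0.55, adjusted p = 0.00758), Hspa1a (1.15, adjusted p = 0.00774) and Rbm3 (0.53, adjusted p = 0.0190) higher and Hsp90aa1 (-0.40, adjusted p = 0.00828) among those lower. Reads of Hspa1a may be split with its near copy Hspa1b. Of 9 genes of fasting and feeding, 0 passed on CDAHFD (4 at an unadjusted p under 0.05; median 0.10), and on HFHC 2 rose and 3 fell (median 0.29). Irs2 (1.97, adjusted p = 0.00886) and Igfbp1 (1.71, adjusted p = 0.0131) rose, while Angptl4 (-0.75, adjusted p = 0.000138) and Fgf21 (-2.02, adjusted p = 0.00102) were among those that fell, and all 4 are known to be induced in liver by fasting. Igfbp1 had 3481, 8985 and 15815 in Mdm2 ASO libraries 6-7, 9 and 10, against 1826 to 3279 in the controls, and its part in the clock gene differences was likewise not tested.

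**Figure D5:**
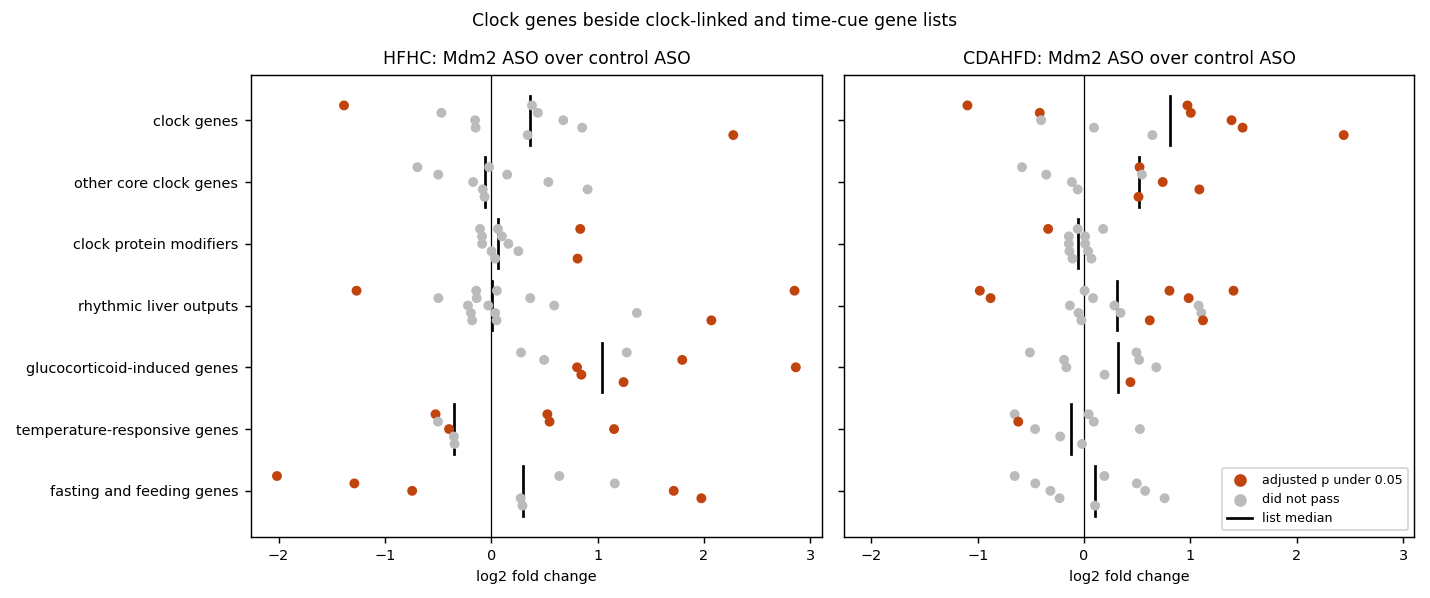
Log2 fold change (Mdm2 ASO over control ASO) of the 10 clock genes and of 6 further lists on HFHC (left) and CDAHFD (right), 1 point per gene, in orange where the adjusted p was under 0.05, with a black line at each list's median. The clock genes have the highest median on CDAHFD, at 0.81, and glucocorticoid-induced genes the highest on HFHC, at 1.04.

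Mdm2 itself fell on both diets, to 40.9% of the control level on CDAHFD (adjusted p = 3.07e-05) and to 38.0% on HFHC (adjusted p = 1.1e-05), with no overlap between groups. On HFHC, 9 of 10 leukocyte markers and 7 of 7 red blood cell markers rose, with summed leukocyte levels of 8868 to 11083 in Mdm2 ASO livers, against 1281 to 2095 in control livers. Library 6-7 had a leukocyte sum of 10420, between those of the other 2 Mdm2 ASO libraries. Its red blood cell sum was the highest, at 31522, beside 14564 in library 9 and 11572 in library 10, against 2604 to 5422 in control livers. Its hepatocyte sum was also the highest, at 1975742, beside 1296991 in library 9 and 1489341 in library 10, against 1096123 to 1352138 in control livers. Alb made up most of these sums, at 988720 to 1670145 in Mdm2 ASO livers, against 754779 to 968792 in control livers. The median log2 change of the 10 hepatocyte markers on HFHC was -0.15. Mitochondrially encoded transcripts fell in 10 of 13 cases on HFHC, with sums of 662299 to 774013 in Mdm2 ASO livers, against 1228745 to 1506256 in control livers. Of the other cell type markers on HFHC, 3 of 5 endothelial and 4 of 5 stellate ones rose, 3 of 5 cholangiocyte ones fell and 0 of 10 hepatocyte ones passed. On CDAHFD 0 of 10 leukocyte markers passed, with sums of 1030.5 to 2871 in Mdm2 ASO livers, against 1432 to 2245 in control livers, and the other lists had at most 1 marker each that passed. The 5 cholangiocyte markers had a median log2 change of 1.05 there, with 4 at an unadjusted p under 0.05 in limma-trend and sums of 763 to 1232 in Mdm2 ASO livers, against 472 to 1313 in control livers. Of the 10 hepatocyte markers 5 were at an unadjusted p under 0.05, with a median log2 change of 0.07. No defining marker of any list was at 0 in all libraries of a group. The part of these cell and RNA differences in the clock gene results on either diet was not tested.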

How the data were processed

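Wild-type mouse livers were sequenced as mRNA. Per the submitters' processing notes, STAR 2.7.10b was the aligner, GRCm39 the genome build and featureCounts (Subread 2.0.3) the counter; the strand setting of the counting is not given in the sources used here. The deposited values are a normalized signal, described as TMM-normalized counts per the labels of the deposited tables, in 1 table per diet of 33235 genes, where 0 columns belonged to samples of another series. In every library 100% of values were whole multiples of 1 constant within 0.001, which gives the reads back. Mdm2 ASO columns 6 and 7 on HFHC were identical, while any other pair within a group differed in at least 18001 genes, so the 18 samples count as 17 libraries.

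Each table was fitted alone with limma-trend (limma 3.58.1, R 4.3.3) on log2(value + 0.5), after a filter that kept genes reaching 1 in a number of libraries equal to that of the smaller group. Calls needed an adjusted p (Benjamini-Hochberg) below 0.05. The pseudocount makes folds of low genes smaller. The contrast between diets used the genes that passed in both tables. The pipeline was tested on simulated data. Alternatives were pseudocounts of 1 and 0.1, no filter, a filter at 10, quantile normalization, scaling to library totals, edgeR 4.0.16 and DESeq2 1.42.0 on the recovered reads, leaving out each library, and both identical columns kept. On the recovered reads edgeR called 5335 genes on HFHC and 2186 on CDAHFD. Correlations used scipy 1.17.1 and numpy 2.4.6 with 100000 permutations within groups. Nothing in the labels says that the samples of a group are separate animals, so p-values measure the spread between samples, which may be technical in part.

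The 10 clock genes and the gene lists were chosen with earlier results of these data known. All 10 are named; of each list up to 4 members that passed per diet are named by smallest p, with exceptions stated; some list members are counted but not reported here by name. Genes most like Bmal1 and Dbp are the 5 of highest Pearson r over values centred on group means. Promoter sequences are RefSeq's on GRCm38.p6, another build than that of the tables, so no other coordinates are given.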

Additional observations from a re-analysis of the deposited data

Results flagged for a closer look

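Ciart in Mdm2 ASO livers on CDAHFD had 1 library far from the others. Replicate 6 held 579 normalized counts, beside 1447 to 1886 in replicates 7 to 10, and its gap to the nearest of them was 0.775 of the group's whole range. Of 30 groups of 4 or 5 libraries tested this way, 1 stood out, and chance marks about 1 in 20 such groups.

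The Mdm2 ASO effect differed between diets for Dbp, by 1.54 on the log2 scale (limma-trend interaction, adjusted p = 0.0300), and for Tef, by 0.66 (adjusted p = 0.0440), both higher on CDAHFD. Of all genes 23.5% passed this test, so 2 of 10 clock genes is not above that share. The Dbp call was lost without any 1 of 5 libraries and the Tef call without any 1 of 10. On CDAHFD each of the 5 Mdm2 ASO libraries exceeded every control for both genes. On HFHC 1 of 3 Mdm2 ASO libraries exceeded every control for Dbp and 2 of 3 did so for Tef.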

How the results depend on the processing

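On CDAHFD Ciart, Dbp, Tef, Per3 and Bmal1 passed in all 18 alternatives, Per2 in 16 and Clock in 11, and Per1 passed in 5. On HFHC Nr1d1 passed in all 16 alternatives and Ciart in 6, with edgeR (adjusted p = 0.00959) and DESeq2 (adjusted p = 0.00254) among them. The 1 clock gene called higher on HFHC became 0 with a pseudocount of 0.1 (Ciart adjusted p = 0.0539), with no filter (0.0505) and with both identical columns kept (0.137), and 2 after scaling to library totals, where Tef passed beside Ciart. After quantile normalization it was 1, with Tef (adjusted p = 0.0197) in place of Ciart (0.0757).

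Of all genes on HFHC, 2399 were lower, 3725 after quantile normalization and 1460 after library total scaling. For the difference between diets 1606 were higher, 2440 and 969 under the same settings, and 1 clock gene passed in place of 2 under each. Calls of the difference were 41.9% higher as deposited, 55.4% after quantile normalization and 26.6% after library total scaling, with a median over all genes of 0.0063, 0.10 and -0.11. The Dbp difference passed in 20 of 26 alternatives and the Tef difference in 14. Within HFHC libraries 0 of 9 relations with Dbp passed, against 5 over all libraries.

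Leaving out 1 library gave 0 to 6 clock genes higher and 1 to 2 lower on HFHC, with the highest counts without Mdm2 ASO library 6-7 and 0 higher without any other library. On CDAHFD it gave 4 to 6 higher and 1 to 2 lower. The difference had 0 to 3, with 0 without HFHC control ASO replicate 2 or 4 or CDAHFD Mdm2 ASO replicate 7, 1 without HFHC Mdm2 ASO library 6-7 or replicate 10, CDAHFD control ASO replicate 2 or 3 or CDAHFD Mdm2 ASO replicate 8, and 3 without CDAHFD Mdm2 ASO replicate 6. Over all genes the ranges were 2132 to 2805 higher and 1552 to 2331 lower on HFHC, lowest without Mdm2 ASO replicate 9. On CDAHFD they were 557 to 1090 higher and 675 to 1193 lower, lowest without control ASO replicate 2, and 629 were higher without Mdm2 ASO replicate 8. For the difference they were 1263 to 1654 higher and 1806 to 2375 lower.

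No called value changed sign under any alternative run. Values that never passed changed sign for Dbp on HFHC (-0.62 to 0.42), Nfil3 on CDAHFD (-0.04 to 0.31) the differences of Ciart (-0.99 to 1.04) and Per1 (-0.59 to 0.27), and the correlation of Nfil3 with Dbp (-0.28 to 0.59). The causes were not tested. No paired analysis was possible because the groups compared share no replicate numbers. HFHC rests on 3 Mdm2 ASO libraries, and every clock gene had at least 44.4 normalized counts.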

Other observations

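Genes whose within-group pattern was most like Bmal1 over 17 libraries, among 11455 genes, were Cldn1, a tight junction claudin (r = 0.95), Clpx, a mitochondrial protease subunit (0.91), Clock (0.90), Smagp (0.90) and Slc16a1, a monocarboxylate transporter (0.89). The 5 most like Dbp were Hsbp1 (0.89), Fam234a (0.88), Ypel5 (0.87), Mgst3, a microsomal glutathione transferase (0.85), and Nudt2 (0.85). Tef ranked 11, Per3 19 and Ciart 20 in likeness to Dbp. The gene most opposite to Bmal1 was Mgst3 (r = -0.94), followed by Nampt, the rate-limiting enzyme of NAD salvage (-0.90). These are descriptions of the same libraries, with no test, and the opposite genes were singled out after their values were seen.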
